A study of Homo sapiens with 6 samples.

Results

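Ribosome biogenesis and nucleolar factors are the proteins that transcribe ribosomal RNA, modify and cut it, and assemble it with ribosomal proteins. They were followed here as 45 genes out of 37871 genes in a count table. These were chosen by name for their known function, with earlier results of these data known. The cells were T24, a human cell line that was established from a carcinoma of the bladder. They had been given LPS and nigericin (3 libraries) or vehicle (3 libraries). LPS is a bacterial cell wall lipid sensed by TLR4, and nigericin is a potassium and proton ionophore that is widely used to trigger the NLRP3 inflammasome. The labels give no dose and no exposure time, and no library with LPS alone or nigericin alone was analysed here, so the effects of the agents cannot be told apart. The cells grew in high glucose DMEM with antibiotics in both groups, and whether each library had a culture of its own is not in the labels. All p-values therefore rest on the spread among these 6 libraries, part of which may be technical. RNA extraction is credited to different service companies in the labels, which do not tie a company to a library, so whether this differed between the groups cannot be told.

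Ribosomal RNA is transcribed in the nucleolus by RNA polymerase I, which is brought to its promoter by UBTF, RRN3 and the SL1 complex of TAF1 proteins. The primary transcript is methylated and pseudouridylated by small nucleolar ribonucleoproteins (snoRNPs), cut at defined sites, and folded into the precursors of the small and large subunits by assembly factors that come and go in order. In proliferating and tumour cells this pathway is a well known output of MYC, and the nucleolus is also a site where several kinds of stress are sensed.

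The libraries held 66180407 to 86594539 counts after LPS and nigericin and 81917343 to 89152224 counts with vehicle. The unit of a level is CPM, a count scaled to a common library size. Levels are of RNA throughout, also where a protein or complex is named, and protein levels and the make-up of complexes were not measured. All 45 genes were tested, and the lowest count of any of them in any library was 87. The epithelial label rested on keratins: the 6 epithelial markers summed to 3510 to 4512 CPM after LPS and nigericin and 6535 to 9536 CPM with vehicle, with CDH1 near 0 (0.071 CPM at most). Of 8 urothelial markers 7 were under 1 CPM in every library, GATA3 being the exception. The 3 mesenchymal markers summed to 6663 to 9102 CPM after LPS and nigericin and 2642 to 4034 CPM with vehicle, most of it FN1. FN1 and CDH2 were higher in every LPS and nigericin library than in any vehicle library. VIM went the other way, with 70.1, 79.1 and 76.9 CPM after LPS and nigericin, against 97.5, 82.8 and 88.9 CPM with vehicle. Of 4 leukocyte markers PTPRC, the defining one, and LYZ were under 1 CPM in every library, and the 4 summed to 5.05 to 7.71 CPM after LPS and nigericin and 7.77 to 16.2 CPM with vehicle. The part of these shifts in the results was not tested. Mitochondrial transcripts took 12.04% to 12.39% of counts after LPS and nigericin and 6.49% to 7.33% with vehicle. CPM are shares of each library, so less RNA per cell and fewer cells of a kind cannot be told apart from a change in a gene.

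The 45 genes did not move as 1 block. After LPS and nigericin 19 were higher, 11 were lower and 15 did not pass the test, edgeR's quasi-likelihood F test with a Benjamini-Hochberg adjusted p under 0.05 over all 19170 tested genes. The treatment touched much of the transcriptome: 55.3% of all tested genes passed, 28.9% as higher and 26.4% as lower, against 66.7% of these 45 genes, 42.2% as higher and 24.4% as lower. Their median log2 fold change was 0.29, beside 0.0016 over all tested genes. A change of at least 2-fold was seen in 11 that were higher and in 2 that were lower, where 17.8% and 14.3% of all tested genes were that far higher or lower. The 3 LPS and nigericin libraries lay wholly above the 3 vehicle libraries for 21 genes and wholly below them for 12, while 67% of all tested genes were separated in this way, 35% above and 32% below.

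**Figure D1:**
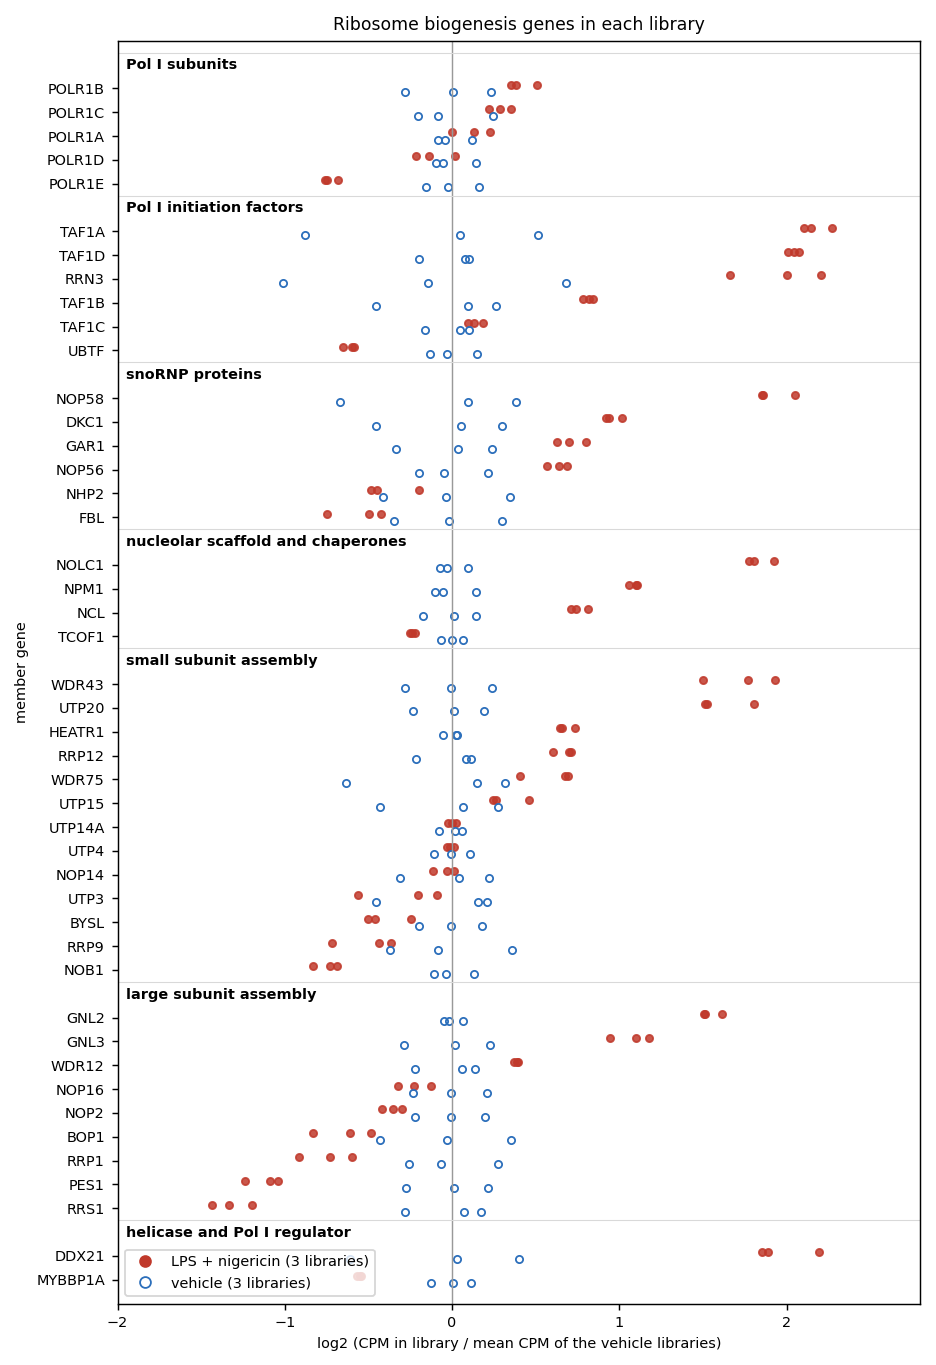
Level of each of the 45 genes in each library, as log2 of its CPM over the mean CPM of the 3 vehicle libraries, grouped by role; filled red points are LPS and nigericin libraries and open blue points are vehicle libraries. The red points of TAF1A, TAF1D, DDX21, NOP58 and NOLC1 lie far right of the blue ones, those of RRS1 and PES1 lie left of them, and the blue points spread more widely than the red for 42 of the 45 genes.

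The roles split unevenly, where 28.9% of all tested genes were higher and 26.4% lower. Factors that start RNA polymerase I transcription (4 of 6 higher), snoRNP proteins (4 of 6) and nucleolar scaffold and chaperone proteins (3 of 4) were mostly higher. Large subunit assembly factors were more often lower (5 of 9, with 3 higher), and 7 of 13 small subunit assembly factors and 4 of 5 polymerase I subunits did not pass. The whole set took 6940 ± 82.1 CPM after LPS and nigericin and 5304 ± 320 CPM with vehicle (SD, n = 3 each), a ratio of 1.31. Most of that net gain lay in the 3 genes with the highest CPM in both groups. NPM1, NCL and NOP56 together had 2960 ± 40.6 CPM after LPS and nigericin and 1613 ± 46.6 CPM with vehicle (SD, n = 3 each), a ratio of 1.83. The other 42 genes together had 3981 ± 42.0 CPM after LPS and nigericin and 3691 ± 351 CPM with vehicle (SD, n = 3 each), a ratio of 1.08 with overlapping libraries. Such sums hide opposite changes, since the ratio was 2.09 for the 19 higher genes together and 0.625 for the 11 lower ones.

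Promoters are shown because the members moved in both directions, and because MYC, the best known activator of the pathway, was itself lower. MYC had 13.3, 13.8 and 13.6 CPM after LPS and nigericin, against 71.4, 53.9 and 69.1 CPM with vehicle, with no overlap (log2 fold change −2.26, edgeR adjusted p = 4.46e-05). The motif searched was the E-box CACGTG, bound by MYC with MAX and by related factors, which reads the same on both strands. RefSeq windows of 300 bases on GRCh38.p14, from 250 before the annotated start to 50 after it, were at hand for 38 of the 45 genes. The windows of 4 members are shown for 130 bases as examples with the motif, 2 of genes that were higher (UTP20 and GNL2) and 2 of genes that were lower (PES1 and FBL), with TAF1A and NOB1 as members with large changes and no motif in the stretch. Each runs 5′ to 3′ on the gene's own strand, from 100 bases before the start to 30 from it, and capitals mark the E-box.
UTP20 (chr12:101280005-101280134, plus strand): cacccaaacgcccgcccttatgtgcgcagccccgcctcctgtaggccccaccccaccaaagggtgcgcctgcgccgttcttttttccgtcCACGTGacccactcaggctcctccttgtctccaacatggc
GNL2 (chr1:37595908-37596037, minus strand): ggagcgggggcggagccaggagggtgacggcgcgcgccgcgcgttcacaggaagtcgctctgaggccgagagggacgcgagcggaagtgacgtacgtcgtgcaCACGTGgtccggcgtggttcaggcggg
PES1 (chr22:30591881-30592010, minus strand): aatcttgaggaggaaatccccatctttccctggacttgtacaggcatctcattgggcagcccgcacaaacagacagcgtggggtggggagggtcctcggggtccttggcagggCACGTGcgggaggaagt
FBL (chr19:39846350-39846479, minus strand): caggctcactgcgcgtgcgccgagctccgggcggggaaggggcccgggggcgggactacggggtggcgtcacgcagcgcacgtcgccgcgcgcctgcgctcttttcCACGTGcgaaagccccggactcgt
TAF1A (chr1:222589904-222590033, minus strand): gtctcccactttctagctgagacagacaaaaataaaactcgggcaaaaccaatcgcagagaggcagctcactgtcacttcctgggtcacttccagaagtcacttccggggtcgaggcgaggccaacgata
NOB1 (chr16:69754897-69755026, minus strand): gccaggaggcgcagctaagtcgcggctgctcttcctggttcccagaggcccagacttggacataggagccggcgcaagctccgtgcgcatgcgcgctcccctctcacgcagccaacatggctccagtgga

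The E-box was found in 15 of the 38 windows (39.5%), in 27.2% of the 147 windows of other ribosome biogenesis genes, and in 12.0% of the 12259 windows of tested genes. In the 250 bases before the start alone it was in 4 of 38 windows of members (10.53%) and in 10.75% of those of tested genes. In 14 of the 15 its first base lay within 50 bases of the annotated start, as it did for 41.1% of the tested genes that hold the motif, and UTP14A was the exception at −241. The motif was present in members that moved either way: in 6 of 16 windows of higher members (GAR1, WDR43, UTP20, GNL2, GNL3 and DDX21), in 5 of 8 of lower members (FBL, BYSL, NOP2, PES1 and MYBBP1A), and in 4 of 14 of those that did not pass (NOP14, UTP4, UTP14A and RRP9). A match of letters is a description of the window, not evidence of binding, and binding was not measured.

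**Figure D2:**
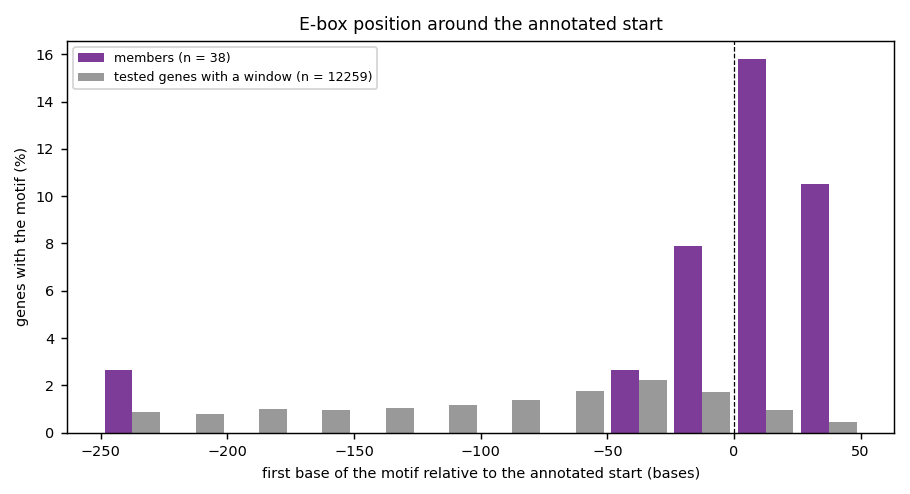
Share of genes whose promoter window holds the E-box CACGTG, by the position of its first base relative to the annotated start in bins of 25 bases, for the 38 members with a window (purple) and the 12259 tested genes with a window (grey). The highest bar is at 0 to 25 bases, with 15.8% of members and 0.954% of tested genes.

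Of the 5 RNA polymerase I subunits among the members, POLR1E alone passed the test. The catalytic core subunit POLR1A had 76.5, 65.2 and 71.4 CPM after LPS and nigericin and 63.3, 70.9 and 61.6 CPM with vehicle, overlapping groups that did not pass (adjusted p = 0.404). POLR1B, the other large core subunit, had 16.0, 14.4 and 14.7 CPM after LPS and nigericin and 11.3, 9.27 and 13.3 CPM with vehicle. Its groups did not overlap, yet the test was not passed (log2 fold change 0.41 ± 0.17 SE, adjusted p = 0.064). POLR1C and POLR1D, which the enzyme shares with RNA polymerase III, had log2 fold changes of 0.29 and −0.11 and did not pass. POLR1E, a subunit of the peripheral pair that helps initiation, fell to 25.7, 24.6 and 24.4 CPM after LPS and nigericin, against 40.5, 46.1 and 37.0 CPM with vehicle (log2 fold change −0.73 ± 0.13 SE, adjusted p = 0.00218).

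Of the 6 initiation factors RRN3, TAF1A, TAF1B and TAF1D were higher, UBTF was lower and TAF1C did not pass. UBTF, which bends and opens the ribosomal DNA, had 134, 139 and 140.5 CPM after LPS and nigericin, against 207, 234 and 193 CPM with vehicle. Every LPS and nigericin library was below every vehicle library (log2 fold change −0.61 ± 0.11 SE, adjusted p = 0.00248). RRN3, the factor that joins the polymerase to the promoter complex and is a known target of growth signalling, had 52.1, 35.7 and 45.2 CPM after LPS and nigericin, against 10.2, 5.60 and 18.1 CPM with vehicle. That is a log2 fold change of 1.97 ± 0.39 SE (adjusted p = 0.00354), in groups that do not overlap. RRN3 has near-identical pseudogene copies, 4 of which are in the table and took 16.8% to 19.9% of the joint counts after LPS and nigericin and 23.1% to 55.8% with vehicle. The authors' counting could split reads among them, so the RRN3 value is uncertain, but with the copies added the means were 54.1 ± 9.06 CPM after LPS and nigericin and 17.0 ± 5.72 CPM with vehicle (SD, n = 3 each), a ratio of 3.17.

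The SL1 complex, which recognises the ribosomal RNA promoter, had 3 of its 4 TAF1 subunits higher. TAF1D (ENSG00000166012, chromosome 11, 93729948 to 93784391, minus strand, GRCh38) had 313, 319 and 304 CPM after LPS and nigericin, against 80.1, 66.0 and 81.1 CPM with vehicle. It was 4.12-fold higher (log2 2.04 ± 0.12 SE, adjusted p = 3.22e-05). TAF1A (ENSG00000143498, chromosome 1, 222557902 to 222589933, minus strand) was rare, with 9.02, 9.31 and 10.2 CPM after LPS and nigericin, against 2.17, 1.14 and 2.99 CPM with vehicle. Its rise was the largest of all 45 genes (log2 2.17 ± 0.33 SE, adjusted p = 0.0011), and TAF1B was also higher, by 0.82 ± 0.21 SE (adjusted p = 0.0108). TAF1C, by contrast, had 80.3, 85.5 and 82.5 CPM after LPS and nigericin and 77.9, 80.7 and 67.1 CPM with vehicle, groups that overlap and did not pass (adjusted p = 0.329).

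Of the 6 snoRNP proteins 4 were higher, FBL was lower and NHP2 did not pass. In the box C/D snoRNP, which methylates ribosomal RNA, the scaffold proteins NOP56 and NOP58 were higher and the methyltransferase FBL was lower. NOP58 had 126, 111 and 109.9 CPM after LPS and nigericin, against 32.4, 19.1 and 39.7 CPM with vehicle (log2 fold change 1.92 ± 0.25 SE, adjusted p = 5.63e-04). NOP56, its paralogue, was abundant already and had 765, 793 and 729 CPM after LPS and nigericin, against 475, 571 and 429 CPM with vehicle (log2 fold change 0.63 ± 0.13 SE, adjusted p = 0.00464). FBL had 169, 211 and 201 CPM after LPS and nigericin, against 279.7, 348 and 222 CPM with vehicle. The FBL groups were separate but close, with a log2 fold change of −0.55 ± 0.18 SE (adjusted p = 0.0286), a call lost when vehicle library 1, or LPS and nigericin library 1 or 3, was left out (adjusted p up to 0.105).

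In the box H/ACA snoRNP, which makes pseudouridine, the catalytic subunit DKC1 had 153, 143 and 144 CPM after LPS and nigericin, against 78.4, 55.0 and 92.9 CPM with vehicle (log2 fold change 0.96 ± 0.18 SE, adjusted p = 0.00323). GAR1 was higher with it, at 16.5, 14.6 and 15.4 CPM after LPS and nigericin, against 9.68, 7.50 and 11.2 CPM with vehicle (adjusted p = 0.0101). NHP2, an RNA-binding subunit, had 131, 159.7 and 134 CPM after LPS and nigericin and 179, 233 and 138 CPM with vehicle, which overlap and did not pass (adjusted p = 0.133).

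Ratios between the transcripts of partner proteins within a library do not depend on library totals. They are given as a description, without a test, for 7 pairs chosen after the values had been seen, a higher gene over a partner that was not. The log2 ratio of NOP58 to FBL was −0.42, −0.93 and −0.87 after LPS and nigericin, against −3.11, −4.19 and −2.48 with vehicle, a difference of 2.52. The difference was 1.17 for NOP56 to FBL, 1.34 for DKC1 to NHP2, 2.14 for TAF1A to TAF1C, and 1.91 for TAF1D to TAF1C. In the PeBoW complex of large subunit assembly it was 1.50 for WDR12 to PES1 and 1.00 for WDR12 to BOP1. NHP2, TAF1C, TAF1D and PES1 share exon bases with coding genes on the other strand, so their counts are uncertain. The largest shared stretches were 414, 450, 250 and 246 bases.

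Of the nucleolar scaffold and chaperone proteins, NPM1, NCL and NOLC1 were higher. NPM1, the histone and assembly chaperone that builds the granular layer of the nucleolus, had 1443, 1489.8 and 1484 CPM after LPS and nigericin, against 668, 645 and 763 CPM with vehicle (log2 fold change 1.09 ± 0.11 SE, adjusted p = 2.23e-04). Per kilobase of transcript NPM1 was the most abundant of the 45 genes in both groups, at 838 CPM per kb after LPS and nigericin and 394 CPM per kb with vehicle. NCL, the RNA-binding protein nucleolin, had 754, 716 and 704 CPM after LPS and nigericin, against 434, 381 and 474 CPM with vehicle (log2 fold change 0.76, adjusted p = 0.00126). NOLC1, a chaperone of snoRNPs, had 237, 218 and 213 CPM after LPS and nigericin, against 61.2, 59.2 and 66.7 CPM with vehicle. Its 3.57-fold rise came with little spread in either group (log2 1.84 ± 0.11 SE, adjusted p = 3.22e-05). TCOF1, a scaffold of related structure that ties ribosomal RNA transcription to modification, had 182, 178 and 179 CPM after LPS and nigericin and 211, 222 and 202 CPM with vehicle, separate groups that missed the threshold (log2 fold change −0.24, adjusted p = 0.0675).

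The small subunit assembly factors held both large rises and genes that did not pass. UTP20, a long helical protein of the early precursor, had 59.1, 48.7 and 48.2 CPM after LPS and nigericin, against 17.1, 14.4 and 19.3 CPM with vehicle (log2 fold change 1.62 ± 0.16 SE, adjusted p = 1.81e-04). WDR43 had 44.7, 33.1 and 39.9 CPM after LPS and nigericin, against 11.7, 9.65 and 13.8 CPM with vehicle (log2 fold change 1.74 ± 0.18 SE, adjusted p = 2.42e-04). WDR43 belongs to the subcomplex that first binds the nascent ribosomal RNA, and its partners there were less changed. HEATR1 was higher, at 58.3, 54.8 and 55.2 CPM after LPS and nigericin, against 35.6, 33.8 and 35.8 CPM with vehicle (adjusted p = 0.00131), though it shares 2095 exon bases with LGALS8 on the other strand and the strand setting of the counts is not given. UTP4, UTP15 and WDR75, also of that subcomplex, had log2 fold changes of −0.01, 0.33 and 0.60 and did not pass (adjusted p = 0.951, 0.189 and 0.0645).

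RRP12, which takes part in export of the small subunit precursor, was higher with 147, 145 and 136 CPM after LPS and nigericin, against 94.6, 96.6 and 77.1 CPM with vehicle (log2 fold change 0.67 ± 0.12 SE, adjusted p = 0.00244). NOB1 and BYSL, which act late, were lower. NOB1, the nuclease that makes the final cut of 18S ribosomal RNA, had 79.5, 87.8 and 85.4 CPM after LPS and nigericin, against 138, 155 and 132 CPM with vehicle. Its groups were well apart (log2 fold change −0.75 ± 0.11 SE, adjusted p = 0.00102). BYSL, needed for late maturation, was lower by a margin that did not survive leaving out vehicle library 1 or 2, or LPS and nigericin library 1 or 3 (log2 fold change −0.40 ± 0.14 SE, adjusted p = 0.0413, up to 0.132 without a library, and 0.0529 with no count filter). UTP14A, whose yeast counterpart activates a processome helicase, had 107, 108 and 105 CPM after LPS and nigericin and 108, 111 and 101 CPM with vehicle. NOP14, UTP3 and RRP9, a U3 snoRNP protein, did not pass either, with log2 fold changes of −0.04, −0.27 and −0.50.

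Among large subunit assembly factors the direction divided by protein. The GTPases GNL2 and GNL3 (nucleostemin) were higher. GNL2 had 167, 156 and 155 CPM after LPS and nigericin, against 53.7, 52.7 and 57.0 CPM with vehicle (log2 fold change 1.55 ± 0.10 SE, adjusted p = 4.9e-05). GNL3 had 121, 102 and 114 CPM after LPS and nigericin, against 53.8, 43.5 and 62.3 CPM with vehicle (log2 fold change 1.08 ± 0.15 SE, adjusted p = 8.14e-04). Both were separated from vehicle by more than the whole range within a group.

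RRS1 and PES1 fell furthest of the 45 genes. RRS1, which helps place the 5S ribonucleoprotein, had 11.5, 13.6 and 12.4 CPM after LPS and nigericin, against 32.8, 25.7 and 35.2 CPM with vehicle (log2 fold change −1.32 ± 0.16 SE, adjusted p = 4.56e-04). It shares 194 exon bases with the coding gene AC009879.2 on the same strand, so its counts are uncertain. PES1 (ENSG00000100029, chromosome 22, 30576625 to 30607083, minus strand) had 152, 174 and 169 CPM after LPS and nigericin, against 362, 416 and 296 CPM with vehicle (log2 fold change −1.12 ± 0.14 SE, adjusted p = 5.65e-04). PES1 works in the PeBoW complex with BOP1 and WDR12. BOP1 was lower too, with 166, 211 and 193 CPM after LPS and nigericin, against 289, 377 and 219 CPM with vehicle (adjusted p = 0.0264), a call lost without vehicle library 1 or without LPS and nigericin library 1 or 3 (adjusted p up to 0.0981). WDR12 was instead higher, with 30.7, 31.2 and 31.3 CPM after LPS and nigericin, against 24.8, 20.5 and 26.2 CPM with vehicle (log2 fold change 0.38 ± 0.13 SE, adjusted p = 0.0407). That call for WDR12 was lost when any library other than vehicle library 3 was left out (adjusted p up to 0.122), by library totals (adjusted p = 0.158) and with no count filter (adjusted p = 0.08).

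RRP1 was lower with 54.4, 67.7 and 61.7 CPM after LPS and nigericin, against 97.6, 124 and 85.8 CPM with vehicle (log2 fold change −0.74 ± 0.16 SE, adjusted p = 0.00546). NOP2, the methyltransferase of 28S ribosomal RNA, was lower by 0.36 on the log2 scale, a call near the threshold (adjusted p = 0.044) that was lost without any library except vehicle library 3 (adjusted p up to 0.128) and with no count filter (adjusted p = 0.0558). The counts of NOP2 are also uncertain because it shares 2550 exon bases with the coding gene AC006064.6 on the same strand. NOP16 did not pass (log2 fold change −0.22, adjusted p = 0.202).

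DDX21 and MYBBP1A, nucleolar regulators of polymerase I, went opposite ways. DDX21, an RNA helicase that binds both ribosomal RNA and genes of polymerase II, had 266, 209.7 and 215 CPM after LPS and nigericin, against 59.3, 38.1 and 76.7 CPM with vehicle. It was 3.97-fold higher (log2 1.99 ± 0.25 SE, adjusted p = 4.85e-04). MYBBP1A, a repressor of ribosomal RNA synthesis, had 134, 133 and 132 CPM after LPS and nigericin, against 196, 211 and 178 CPM with vehicle, a fall of every library below the vehicle range (log2 fold change −0.55 ± 0.11 SE, adjusted p = 0.00314).

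The order of the genes by level also moved. Per kilobase, the most abundant after NPM1 were NOP56, NCL, FBL and NHP2 after LPS and nigericin, and FBL, NHP2 and NOP56 with vehicle. TAF1D ranked 6 of 45 after LPS and nigericin, at 149.9 CPM per kb, and 16 with vehicle, at 36.4 CPM per kb. NOP58, NOLC1 and DDX21 ranked 10, 11 and 15 after LPS and nigericin, against 31, 30 and 32 with vehicle. TAF1A was the least abundant with vehicle, at 1.07 CPM per kb, and POLR1B after LPS and nigericin, at 2.97 CPM per kb.

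Members that hold snoRNA genes are described as a group that was formed after the values had been seen, with no test. By the GENCODE annotation 8 of the 45 genes hold snoRNA genes on their own strand: TAF1D with 8, GNL3 with 6, NOP56 with 5, NOP58 with 4, NCL and WDR43 with 3 each, DKC1 with 2 and POLR1C with 1. Of these hosts 7 were higher, none was lower and POLR1C did not pass, with a median log2 fold change of 1.02. Of the other 37 genes 12 were higher and 11 lower, with a median of −0.01. Over all tested genes 28.9% were higher and 26.4% lower, and snoRNA hosts outside the 45 genes were not examined. The median G+C content of the transcript was 45.1% in the hosts and 51.1% in the other members. Of all coding genes under 50% G+C, 51.1% were higher. The part of G+C content in the difference was not tested. The hosted snoRNA genes themselves could not be followed, since none of 32 had more than 13 counts in any library. TAF1D, NOP56, NOP58, DKC1 and GNL3 share at least 50 exon bases with a snoRNA gene that they hold, on the same strand. How the counting assigned reads there is not given, so the counts of these hosts and of their snoRNA genes are uncertain.

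**Figure D3:**
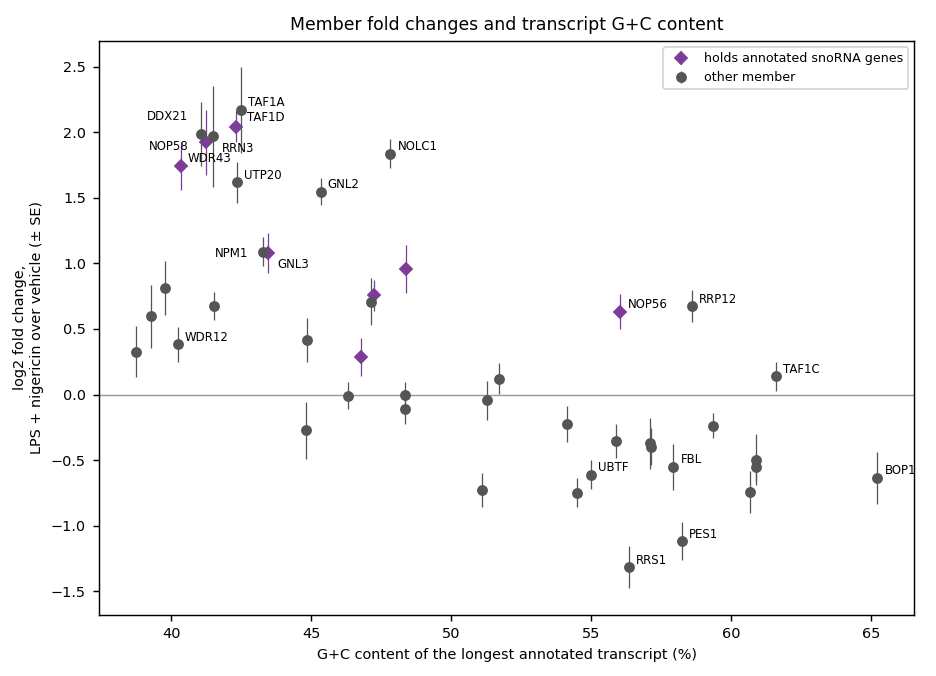
Log2 fold change of each of the 45 genes, LPS and nigericin over vehicle, with its SE, against the G+C content of its longest annotated transcript; purple diamonds hold annotated snoRNA genes and grey circles are the other members. Genes under 50% G+C lie mostly above 0 and genes over 50% mostly below, with NOP56 and RRP12 as higher genes on the G+C-rich side.

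The direction of a member went with the base composition of its transcript. Of 25 members with under 50% G+C, 17 were higher and none was lower. Of 20 with 50% or more, 2 were higher (NOP56 and RRP12) and 11 lower. Spearman's correlation of the log2 fold change with G+C content was −0.715 across the 45 genes and −0.54 across all 13976 tested coding genes, a description across genes that share the same 6 libraries. The same split ran through the transcriptome: 51.1% of coding genes under 50% G+C were higher and 9.2% lower, while of those with 50% or more 14.0% were higher and 48.4% lower.

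Vehicle libraries differed among themselves along the same axis. Vehicle library 3 was the highest of the 3 vehicle libraries for 21 of the 25 members poor in G+C, and vehicle library 2 for 19 of the 20 rich in it. Vehicle library 1 was never the highest or the lowest for any member. The spread between libraries had a median coefficient of variation of 5.72% after LPS and nigericin and 15.3% with vehicle. The part that G+C content plays in the fold changes was not tested, but each library could be fitted with an offset, a smooth curve of its counts against the G+C content and length of the transcripts, which takes such a trend out whether technical or biological.

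With the offsets 17 of the 45 genes were higher, 12 lower and 16 did not pass, and the median log2 fold change was 0.08, where 50.1% of 18620 genes passed, 23.3% higher and 26.8% lower. Of the 19 higher genes 16 were still higher, TAF1B and HEATR1 no longer passed (log2 fold changes 0.29 and −0.25), and WDR12 passed in the opposite direction (−0.58, adjusted p = 0.00306). The offsets used the longest basic transcript of each gene, of 8100 bases for WDR12, and other transcripts were not tried. Of the 11 lower genes 6 were still lower, namely POLR1E, UBTF, NOB1, PES1, RRS1 and MYBBP1A. FBL, BYSL, NOP2, BOP1 and RRP1 no longer passed (log2 fold changes −0.02, 0.08, −0.04, 0.15 and −0.19). TAF1C became higher (0.63, adjusted p = 1.42e-04), and POLR1A, POLR1D, UTP3, UTP4 and UTP15 became lower (−0.44, −0.48, −0.58, −0.49 and −0.53). By role, 3 of 5 polymerase I subunits and 3 of 9 large subunit assembly factors were then lower, with 0 and 2 higher. Of 13 small subunit assembly factors 3 were higher and 4 lower. The initiation factors (4 of 6), snoRNP proteins (4 of 6) and scaffold and chaperone proteins (3 of 4) had as many higher as without the offsets.

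Members that had risen by over 3-fold were still higher with the offsets, by less. The log2 fold change was then 1.80 for TAF1A, 1.61 for TAF1D, 1.49 for NOP58 and for NOLC1, 1.37 for RRN3, 1.23 for DDX21, 1.06 for WDR43 and 0.77 for UTP20. RRS1 was at −0.90 and PES1 at −0.64. The snoRNA hosts kept a median of 0.90, with 7 of 8 higher, where 23.3% of 18620 genes were higher. The within-library ratios shrank, to differences of 1.51 for NOP58 to FBL, 1.05 for NOP56 to FBL, 0.66 for DKC1 to NHP2, 1.18 for TAF1A to TAF1C and 0.98 for TAF1D to TAF1C. Those of WDR12 did not last, at 0.06 to PES1 and −0.73 to BOP1.

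**Figure D4:**
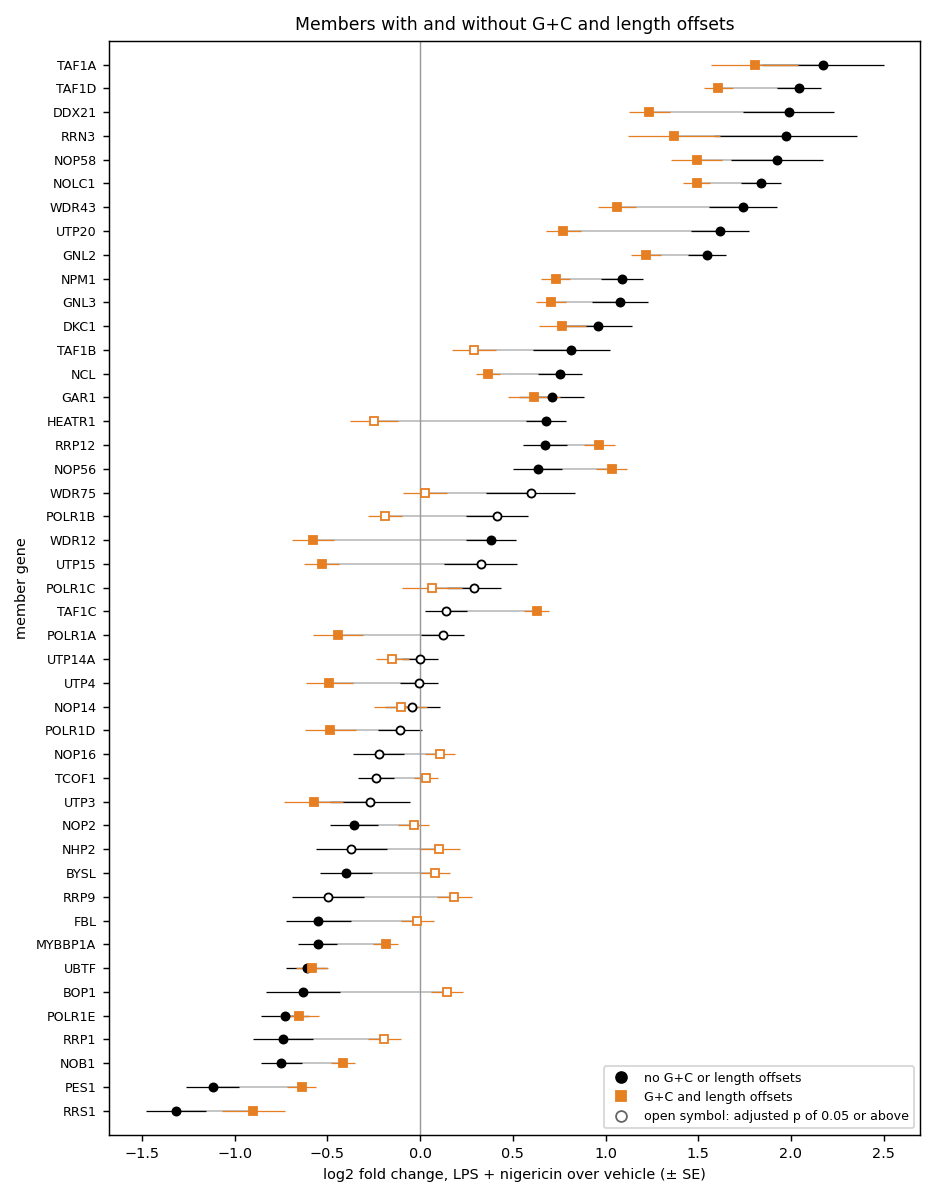
Log2 fold change of each of the 45 genes, LPS and nigericin over vehicle, with its SE, without offsets (black circles) and with G+C and length offsets (orange squares); filled symbols have an adjusted p under 0.05. Genes at the top, such as TAF1A, TAF1D and DDX21, stay right of 0 under both, and WDR12 is filled on both sides of 0.

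The rest of the pathway was drawn up by function as 172 further genes, also with earlier results of these data known. Of these AFG2A was not analysed here and 171 were tested. Here 45 were higher, 66 were lower and 60 did not pass, with a median log2 fold change of −0.19, so that 26.3% were higher and 38.6% lower beside 28.9% and 26.4% of all tested genes. With the offsets 28 were higher and 83 lower, with a median of −0.23, where 23.3% of 18620 genes were higher and 26.8% lower. Every gene named in the account that follows passed the test unless stated.

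Other RNA polymerase I and shared subunits were mostly lower (6 of 10, with 2 higher), where 26.4% of all tested genes were lower and 28.9% higher. POLR1H, the small zinc ribbon subunit that trims stalled transcripts, was the most affected at 3.52 ± 0.561 CPM after LPS and nigericin and 20.6 ± 3.92 CPM with vehicle (SD, n = 3 each), a log2 fold change of −2.54. POLR1G, the partner of POLR1E, had a log2 fold change of −1.41. The termination factor TTF1 was higher by 0.62 and the shared subunit POLR2K by 0.45, and neither passed with the offsets (adjusted p = 0.203 and 0.407). The call for POLR2K was also lost when any library but vehicle library 2 or 3 was left out (adjusted p up to 0.0872), and by library totals (0.0923). RNA polymerase III, which makes 5S ribosomal RNA, had 9 of 21 subunits and factors higher (42.9%) and 6 lower (28.6%). BDP1 (1.95) and GTF3C3 (1.10) were among the higher, and GTF3C5 (−1.75) and POLR3K (−1.05) among the lower.

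Of 12 other snoRNP proteins and assembly factors 4 were higher and 4 lower (33.3% each, beside 28.9% and 26.4% of all tested genes). NUFIP1 (1.06) and NAF1 (0.93), assembly factors of box C/D and box H/ACA snoRNPs, were higher, while SNU13 (−0.83), the core protein that first binds box C/D RNA, and the helicase RUVBL2 (−0.98) were lower. Of 33 other small subunit processome factors 11 were higher (33.3%), among them DDX47 (1.50) and DDX10 (1.18), and 8 lower (24.2%). These shares lie near those of all tested genes. IMP3, a U3 snoRNP protein, had the largest fall in the wider lists, with 8.33 ± 1.19 CPM after LPS and nigericin and 56.2 ± 19.8 CPM with vehicle (SD, n = 3 each), a log2 fold change of −2.75. UTP11 was also lower (−1.10). With the offsets NUFIP1, DDX10 and GTF3C3 did not pass (adjusted p = 0.106, 0.156 and 0.11).

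Of 42 other large subunit assembly factors 9 were higher (21.4%) and 16 lower (38.1%), beside 28.9% and 26.4% of all tested genes. TEX10 (1.89) and the GTPase GTPBP4 (1.28) were among the higher, and NOL12 (−2.66) and WDR74 (−1.90) among the lower. NOL12 had 13.9 ± 1.67 CPM after LPS and nigericin and 88.1 ± 18.8 CPM with vehicle (SD, n = 3 each). The factors of the late steps were mixed. Of 8 acting on the late 40S subunit 3 were higher (37.5%), RIOK3 (2.08) and LTV1 (0.87) among them. CINP alone (12.5%) was lower, with a log2 fold change of −0.78. Of 8 acting on the late 60S subunit 4 were higher (50%) and 3 lower (37.5%). The export adaptor NMD3 (1.27) and SBDS (1.18) were among the higher. EIF6 (−1.28), the factor that SBDS helps to release, and ZNF622 (−0.62) were among the lower. The call for ZNF622 was lost without LPS and nigericin library 1 (adjusted p = 0.052).

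The enzymes that trim and modify ribosomal RNA leaned to the lower side, where 26.4% of all tested genes were lower and 28.9% higher. Of 25 genes of the RNA exosome, RNase MRP and trimming 15 were lower, such as EXOSC7 (−1.99) and RPP38 (−1.91), and 3 were higher, among them the nucleases XRN2 (1.23) and DIS3 (1.17). Of 12 rRNA modification enzymes 7 were lower, such as TSR3 (−1.77) and NSUN5 (−1.55), and none was higher. With the offsets 20 of the 25 and 10 of the 12 were lower, with median log2 fold changes of −0.88 and −0.69. Over all 18620 genes fitted with the offsets 26.8% were lower, and the median was −0.07.

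**Figure D5:**
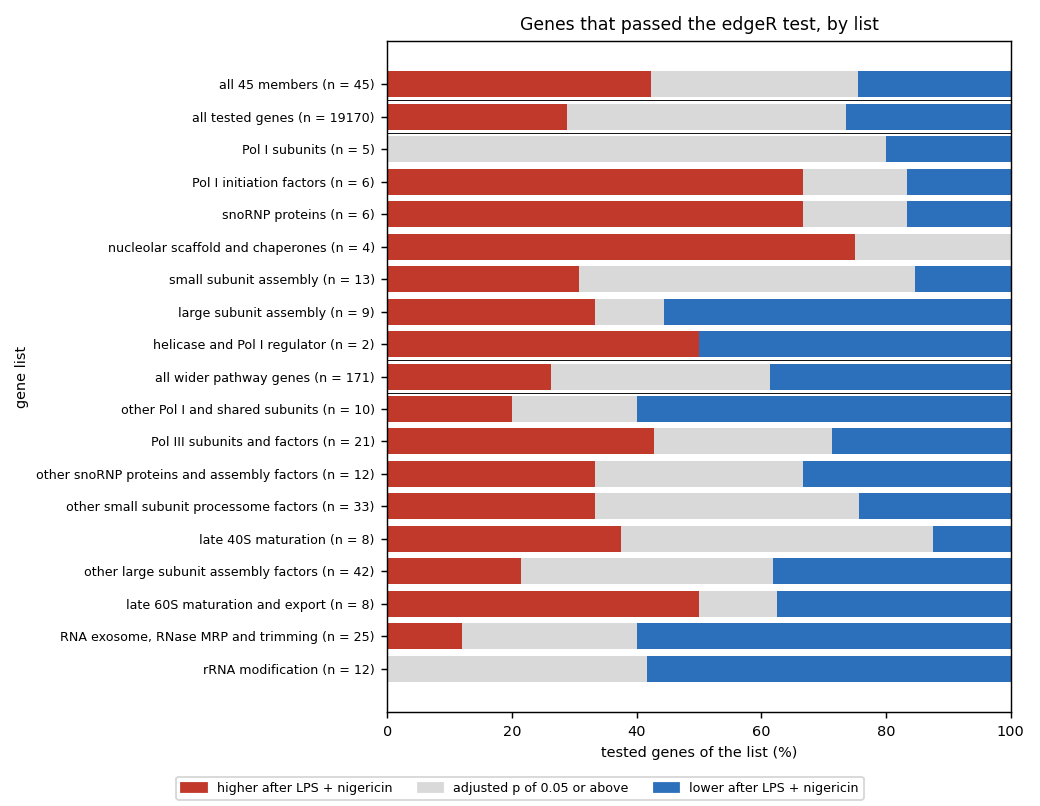
Share of the tested genes of each list that were higher (red) or lower (blue) after LPS and nigericin than with vehicle, or did not pass (grey), by edgeR's quasi-likelihood F test at an adjusted p under 0.05, for the 45 members, all 19170 tested genes, the members by role and the wider lists. The members hold more red (42.2%) than all tested genes (28.9%), the initiation and snoRNP bars are mostly red, and the exosome and rRNA modification bars are mostly blue.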

How the data were processed

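RNA of T24 cells was sequenced in 6 libraries. The authors deposited whole-number counts per Ensembl gene, per the file headers, and hg38 is named in the submitters' processing notes. Not given in the sources used here are the strand setting, the annotation release, and the tools for alignment and counting. Symbols were matched for 37840 of 37871 IDs. Gene positions, transcript length and G+C content came from GENCODE release 29 (GRCh38), using each gene's longest basic transcript, and promoters from RefSeq (GRCh38.p14). Counts were filtered with filterByExpr (19170 genes tested, 6043 were 0 in every library), scaled by TMM and tested with edgeR 4.0.16 (R 4.3.3), robust quasi-likelihood F test, Benjamini-Hochberg over all tested genes. CPM use the TMM library sizes. Exon sharing with another annotated gene of at least 50 bases was found for 23 members, 12 of them with a coding gene, and those counts are uncertain. Alternatives were RLE factors, library totals, DESeq2 1.42.0, limma-voom 3.58.1, other count filters, G+C and length offsets (loess, span 0.3), a replicate block, a test against a 2-fold change, leaving out mitochondrial and rRNA genes, and leaving out each library. Members and lists were chosen with earlier results of these data known. All members are named, and of each wider list the 2 higher and 2 lower genes with the smallest p. Promoters were shown for the largest rises and falls, where few exon bases lay in the stretch, with UTP20, GNL2 and FBL added after the motif search. The fit was tested on simulated data.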

Additional observations from a re-analysis of the deposited data

How the results depend on the processing

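The counts of members (19 higher, 11 lower) were 21 and 13 by DESeq2, 20 and 11 by limma-voom, 19 and 11 with RLE factors, 18 and 14 by library totals, 18 and 9 with no count filter, and 19 and 13 with a stricter one. Leaving out 1 library gave 18 to 21 higher and 7 to 15 lower members, with 7 lower without vehicle library 1 or LPS and nigericin library 1 or 3, and 15 without vehicle library 3. For the wider genes (45 higher, 66 lower) it gave 34 to 56 and 55 to 73. Tested against a 2-fold change, 9 members were higher and 0 lower (4 and 12 of the wider genes), of 1512 higher and 1172 lower over all genes. The median log2 fold change of the members (0.29) ranged from 0.19 to 0.32 without 1 library, and was 0.0816 with the offsets. The wider genes had 28 higher with them.

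Replicate numbers are shared by the groups, and the deviations of same-numbered libraries had correlations of −0.023, 0.096 and −0.024. Libraries with unlike numbers had correlations of −0.101 to 0.122, so whether the numbers mark pairs cannot be told. With the replicate block 19 members were higher and 11 lower (50 and 69 of the wider genes) and the median was 0.30, but the calls for WDR12 and NOP2 were lost (adjusted p = 0.0578 and 0.0585). With the block and the offsets together the median was 0.0919 and 28 wider genes were higher.

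With the offsets 12 members changed sign. Their log2 fold changes, with the offsets and then with the offsets and the block, were −0.44 and −0.42 for POLR1A, −0.19 and −0.19 for POLR1B, 0.10 and 0.11 for NHP2, 0.0289 and 0.0288 for TCOF1, −0.53 and −0.53 for UTP15, −0.25 and −0.24 for HEATR1, 0.18 and 0.19 for RRP9, 0.0816 and 0.0808 for BYSL, 0.11 and 0.11 for NOP16, −0.58 and −0.58 for WDR12, 0.15 and 0.15 for BOP1, and −0.15 and −0.14 for UTP14A. UTP14A, near 0 throughout, was also at −0.0223 with RLE factors, −0.0511 by library totals, −0.0223 by DESeq2, −0.0137 with no filter and −0.0216 with a stricter one, and between −0.048 and 0.0281 without 1 library. Without 1 library NOP14 lay between −0.19 and 0.0758 and UTP4 between −0.0678 and 0.0427, both above 0 only without vehicle library 2. The cause was not tested in any of these. Of the members, 18 of the 19 higher and 7 of the 11 lower kept their call under every alternative tried other than the offsets and the test against a 2-fold change.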

Other observations

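The nuclear 5.8S ribosomal RNA genes, a product of the pathway, were in none of the lists compared here, and their counts are given unscaled. RNA5-8SN1 had 1965, 2613 and 2236 counts after LPS and nigericin, against 155, 135 and 139 counts with vehicle. RNA5-8SN2 had 3722, 5037 and 4828 counts after LPS and nigericin, against 244, 203 and 194 counts with vehicle. RNA5-8SN3 had 2949, 3989 and 3415 counts after LPS and nigericin, against 204, 171 and 184 counts with vehicle. These copies are near-identical in sequence, so reads can be split among them, and the labels do not say how ribosomal RNA was removed.

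The smallest values of the table have an uneven pattern. In all 6 libraries 269 genes have a count of exactly 1, of which 79 are snoRNA and 101 microRNA genes, while 1 gene has exactly 2 in every library. Of the 32 snoRNA genes held by members, 12 have exactly 1 in every library.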
